A study of Mus musculus with 21 samples.

Results

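The genes described here are 10 members of the YAP/TEAD pathway, out of 33861 genes in the deposited mouse count table. They were chosen by name, with earlier results of these data known: the coactivators Yap1 and Wwtr1 (which encodes TAZ), the DNA-binding partners Tead1 and Tead2, the target genes Ctgf, Cyr61 and Ankrd1, and Amotl2, Lats2 and Ajuba, which encode regulators of the pathway. All 10 were found in the table, and all 10 passed the filter on low counts in the cultured samples. In the epiblasts 9 were tested, since Ankrd1 did not pass that filter there.

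YAP and TAZ have no DNA-binding domain of their own and act on genes through TEAD transcription factors. The kinases LATS1 and LATS2 of the Hippo pathway phosphorylate both coactivators, which keeps them out of the nucleus, and cell contact, cell shape and matrix stiffness act on this step. In the early mouse embryo the pathway is best known for separating trophectoderm from inner cell mass, and YAP and TEAD also act in the epiblast around implantation. A transcript level reports neither the phosphorylation nor the location of a protein, and these data hold transcript levels alone.

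The series holds total RNA from 12 cultured samples of 1000 cells each and from 9 mouse epiblasts collected singly. FS cells carry the label formative stem cells and grew in A3XR medium; they come from 2 lines, FS1 at passages 10, 11 and 18 and FS2 at passages 12, 13 and 16. AF and AFX cells are labelled EpiSCs (epiblast stem cells), carry the embryonic stem cell line name E14 in their titles, and were kept in media named AF and AFX, each at passages 14, 15 and 16. There are 3 epiblasts of each stage, from E5.0 through E5.5 to E6.0, and the last stage is E6.0 in the titles and E6.5 in another label field. In the published work on these cells, A stands for activin A, F for FGF2, X for the tankyrase inhibitor XAV939 and R for an inhibitor of retinoic acid receptors. No genetic modification is labelled in any group. FS and the EpiSCs differ in line and in medium together, so the effects of line and medium cannot be told apart, while AF and AFX share the E14 name and differ in medium. Each cultured group is 1 line, or for FS 2 lines, sampled at several passages, so p-values among cultured samples measure the spread between passages and 2 FS lines.

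Total counts ran from 5827093 to 15916800 per sample. The 6 epiblast markers were detected in every sample, with summed levels of 1133 to 1710.2 CPM (counts scaled to a common library size) in AF and 5565 to 6976 CPM in E6.0. Dnmt3b had the highest level of the 6, up to 1958 CPM in the cultures and 5727 CPM in the epiblasts. Sox2 and Fgf5 peaked higher in the cultures (100.1 and 187 CPM) than in the epiblasts (73.1 and 106 CPM), and the other markers peaked higher in the epiblasts. A set of 9 fibroblast genes summed to 247 to 299 CPM in the 3 AF samples, 37.8 to 74.1 CPM in FS, 44.3 to 69.8 CPM in AFX and 12.8 to 29.2 CPM in the epiblasts. Of 11 visceral endoderm genes, the sum was 235 to 791 CPM in E5.0, 24.7 to 60.2 CPM in E5.5 and 6.41 to 9.17 CPM in E6.0. Of the 6 FS samples, FS2 passage 12 was the highest in 9 of the 10 genes, and AF passage 15 was the highest of its group in 8 of the 10. These 2 libraries stand apart from their groups, so where leaving out 1 of them changes a call, or moves a called value by over 1.5 times, the value without it is given too.

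Since YAP and TAZ reach DNA through TEAD proteins, the promoters were read for the letters that TEAD proteins bind, GGAATG, or CATTCC on the other strand; the pair are reverse complements and count as 1 motif. RefSeq (GRCm38.p6) gave 10 start sites for 8 of the 10 genes, and the window was the 250 bases before each. Ctgf and Tead1 had no entry, so their promoters were not read. The motif was found in 6 of the 8 genes and at 7 of their 10 start sites, against 12.6% of 32851 promoters in the same table. Ankrd1 and Ajuba held it more than once, as did 1.02% of all promoters. Yap1, Wwtr1, Cyr61 and Amotl2 held it once per window, and the windows of Tead2 and Lats2 held no match. The Cyr61 window, chr3:145649986-145650235 on the minus strand, and the Ajuba window, chr14:54577662-54577911 on the minus strand, are shown whole with the motif in capitals. Neither overlaps an annotated exon of GENCODE M21. The windows of the remaining 4 genes are shown as 30 bases around each match.
Cyr61: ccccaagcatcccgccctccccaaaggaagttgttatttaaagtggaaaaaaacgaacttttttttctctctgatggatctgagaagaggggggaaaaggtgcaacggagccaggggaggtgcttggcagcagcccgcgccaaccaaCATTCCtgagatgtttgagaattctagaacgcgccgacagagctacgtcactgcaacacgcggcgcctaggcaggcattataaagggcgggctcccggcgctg
Ajuba: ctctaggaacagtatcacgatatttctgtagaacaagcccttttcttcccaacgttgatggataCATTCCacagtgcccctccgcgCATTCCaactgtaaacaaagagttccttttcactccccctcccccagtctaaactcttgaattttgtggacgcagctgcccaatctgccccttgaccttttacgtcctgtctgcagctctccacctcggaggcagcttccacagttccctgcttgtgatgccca
Ankrd1, far site: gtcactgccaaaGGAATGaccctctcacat
Ankrd1, near site: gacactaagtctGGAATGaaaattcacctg
Amotl2: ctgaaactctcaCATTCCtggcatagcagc
Yap1: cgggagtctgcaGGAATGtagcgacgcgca
Wwtr1: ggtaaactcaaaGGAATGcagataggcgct

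In Cyr61 the match lay 103 to 98 bases before the start, and in Amotl2, chr9:102717727-102717756 on the plus strand, 65 to 60 bases before it. The Ankrd1 matches lay 210 to 205 bases (chr19:36120037-36120066, minus strand) and 123 to 118 bases (chr19:36119950-36119979, minus strand) before its RefSeq start. All 250 bases of the Ankrd1 window and 136 of the Amotl2 window lie in exons that GENCODE M21 assigns to those genes from other starts. The Ajuba matches lay 186 to 181 and 164 to 159 bases before the start. The 30-base stretches of Yap1 (chr9:8004720-8004749) and Wwtr1 (chr3:57576029-57576058) are on the minus strand, and both start sites of Wwtr1 share the match. A match is a run of letters and was not shown to be bound in these cells.

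Yap1 (chr9:7931999-8004596) varied little within the cultures. Its level was 156, 143 and 135 CPM in FS1 at passages 10, 11 and 18, 145, 144 and 144 CPM in FS2 at passages 12, 13 and 16, 142, 128 and 141 CPM in AF and 138, 158 and 145 CPM in AFX, the last groups at passages 14, 15 and 16. In single embryos (numbers 1, 2 and 4 at E5.0, and 1, 2 and 3 at the later stages) it was 197, 191 and 176 CPM at E5.0, 214, 164 and 163 CPM at E5.5 and 194, 210.2 and 187 CPM at E6.0. Every epiblast lay above every cultured sample, and the 3 stages overlapped one another.

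Wwtr1 (chr3:57455649-57575910), which encodes the second coactivator, TAZ, had the opposite order. Its level was 42.3, 39.3 and 27.5 CPM in FS1, 45.7, 35.2 and 39.0 CPM in FS2, 38.9, 59.97 and 39.8 CPM in AF and 35.8, 28.9 and 24.1 CPM in AFX. The epiblasts had 12.3, 18.5 and 27.4 CPM at E5.0, 22.8, 17.7 and 19.1 CPM at E5.5 and 23.1, 23.5 and 20.1 CPM at E6.0. The 4 cultured groups overlapped in a chain from AF down to AFX, and 1 E5.0 embryo reached into the AFX range. Compared per kilobase of exon (FPKM), Yap1 exceeded Wwtr1 in every group, with 14.8 ± 0.84 against 9.67 ± 2.49 FPKM (SD, n = 3) in AF and 20.3 ± 1.13 against 4.06 ± 1.59 FPKM (SD, n = 3) in E5.0.

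Tead1 (chr7:112679318-112906807) and Tead2 (chr7:45215753-45233644) encode TEAD factors, and AF, the group with the highest mean of Tead1, had the lowest of Tead2. Tead1 was 98.8, 107 and 94.4 CPM in FS1, 196, 90.4 and 142 CPM in FS2, 134, 217 and 137 CPM in AF and 114, 158 and 119.8 CPM in AFX. It was 40.3, 92.2 and 64.6 CPM at E5.0, 43.0, 47.6 and 50.9 CPM at E5.5 and 51.9, 45.8 and 37.4 CPM at E6.0. FS2 passage 12 and AF passage 15 had the highest Tead1 levels of all samples, and E5.0 embryo 2 was the one epiblast within the cultured range.

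Tead2 was 194, 183 and 191 CPM in FS1, 194, 189 and 180.1 CPM in FS2, 156, 148 and 138 CPM in AF and 158, 163 and 159 CPM in AFX. It was 178, 208 and 172 CPM at E5.0, 237, 230.2 and 248 CPM at E5.5 and 271, 280.2 and 269 CPM at E6.0. AF was the lowest group and AFX the next, neither overlapping another group, and the order E6.0 above E5.5 above the FS lines and E5.0 had no overlap between E6.0 and E5.5 or between E5.5 and the rest. Per length, Tead2 was the more abundant of the pair everywhere, with 30.8 ± 1.91 against 11.97 ± 3.48 FPKM (SD, n = 3) in AF and 57.1 ± 1.25 against 3.32 ± 0.537 FPKM (SD, n = 3) in E6.0.

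Ctgf (chr10:24595442-24598683; Ccn2 in GENCODE) and Cyr61 (chr3:145646976-145649981; Ccn1) encode secreted matrix proteins and are the most used readouts of YAP and TEAD. Fibroblasts make both proteins too. Ctgf was 8.15, 15.5 and 18.8 CPM in FS1, 44.5, 16.1 and 15.8 CPM in FS2, 60.8, 150.3 and 65.8 CPM in AF and 15.1, 14.3 and 30.7 CPM in AFX. In the epiblasts it was 18.8, 27.5 and 26.9 CPM at E5.0, 10.7, 9.87 and 19.5 CPM at E5.5 and 42.2, 59.9 and 35.0 CPM at E6.0. Every AF sample lay above all 18 other samples, and FS2 passage 12 was far above the other 5 FS samples, which ran from 8.15 to 18.76 CPM. E5.5 embryos 1 and 2 lay within the range of those 5. All 3 E5.0 embryos and E5.5 embryo 3 lay above them, and were within the FS range only through FS2 passage 12. The antisense gene Gm15270 shares 665 of its 2861 exon bases and had 0 to 14 counts; the strand setting of the counting is not given in the sources used here, so reads of the pair cannot be told apart.

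Cyr61 was 25.4, 39.1 and 22.3 CPM in FS1, 99.5, 17.1 and 33.2 CPM in FS2, 88.2, 211 and 92.7 CPM in AF and 77.4, 81.7 and 67.3 CPM in AFX. In the epiblasts it was 62.7, 67.0 and 61.2 CPM at E5.0, 87.0, 42.5 and 84.0 CPM at E5.5 and 134, 139 and 98.4 CPM at E6.0. Unlike Ctgf, its E6.0 levels lay above 2 of the 3 AF samples, and 5 of the 6 FS samples lay below all other samples. Per length, Cyr61 exceeded Ctgf in every group, with 64.7 ± 34.5 against 32.3 ± 17.6 FPKM (SD, n = 3) in AF and 35.2 ± 12.3 against 4.68 ± 1.86 FPKM (SD, n = 3) in E5.5.

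Ankrd1 (chr19:36111961-36120099), which encodes a nuclear ankyrin-repeat protein best known from heart and skeletal muscle, was highest in AF and close to the detection limit in most other samples. It was 0.199, 0.118 and 0.0815 CPM in FS1, 2.74, 0.106 and 0.285 CPM in FS2, 3.71, 6.52 and 1.95 CPM in AF and 0.134, 0.125 and 0 CPM in AFX. Across libraries, 3 counts correspond to between 0.171 and 0.590 CPM, and all AFX and all FS1 samples were at or under 3 counts. Of the 9 epiblasts 7 had no count, E5.0 embryo 2 had 0.197 CPM and E6.0 embryo 1 had 0.657 CPM. FS2 passage 12 was the one FS sample within the AF range.

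Amotl2 (chr9:102716672-102733418) encodes a junction-associated motin that binds YAP and is itself a target gene. It was 124, 163 and 129 CPM in FS1, 235, 97.4 and 164 CPM in FS2, 181, 296 and 181 CPM in AF and 234, 233 and 165 CPM in AFX. It was 159.5, 208 and 211 CPM at E5.0, 270.0, 238 and 233 CPM at E5.5 and 371, 372 and 360.0 CPM at E6.0. The E6.0 epiblasts lay above every other sample, and each other group overlapped its neighbour in the order of means.

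Lats2 (chr14:57689662-57758388) encodes 1 of the kinases that phosphorylate YAP and TAZ and is also a YAP target. It was 31.4, 30.04 and 23.9 CPM in FS1, 65.4, 23.1 and 36.0 CPM in FS2, 25.2, 53.3 and 31.8 CPM in AF and 23.9, 33.5 and 20.2 CPM in AFX. The epiblasts had 17.2, 29.7 and 4.80 CPM at E5.0, 34.6, 22.4 and 19.5 CPM at E5.5 and 59.9, 54.8 and 38.0 CPM at E6.0. Each group overlapped its neighbour in the order of means, and the widest relative spread was among the E5.0 embryos. Of its 6971 exon bases, 2955 are shared with Gm49361, an annotated gene on the same strand, so its counts are uncertain.

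Ajuba (chr14:54567472-54577558) encodes a LIM protein that binds LATS kinases and restrains them. It was 74.1, 80.4 and 98.1 CPM in FS1, 128, 82.3 and 103 CPM in FS2, 102, 136 and 124 CPM in AF and 100.3, 127 and 96.7 CPM in AFX. In the epiblasts it was 126, 96.1 and 142 CPM at E5.0, 158, 174 and 173 CPM at E5.5 and 161, 172 and 178 CPM at E6.0. The E5.5 and E6.0 epiblasts overlapped each other and lay above all other samples, and E5.0 overlapped the cultures.

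**Figure D1:**
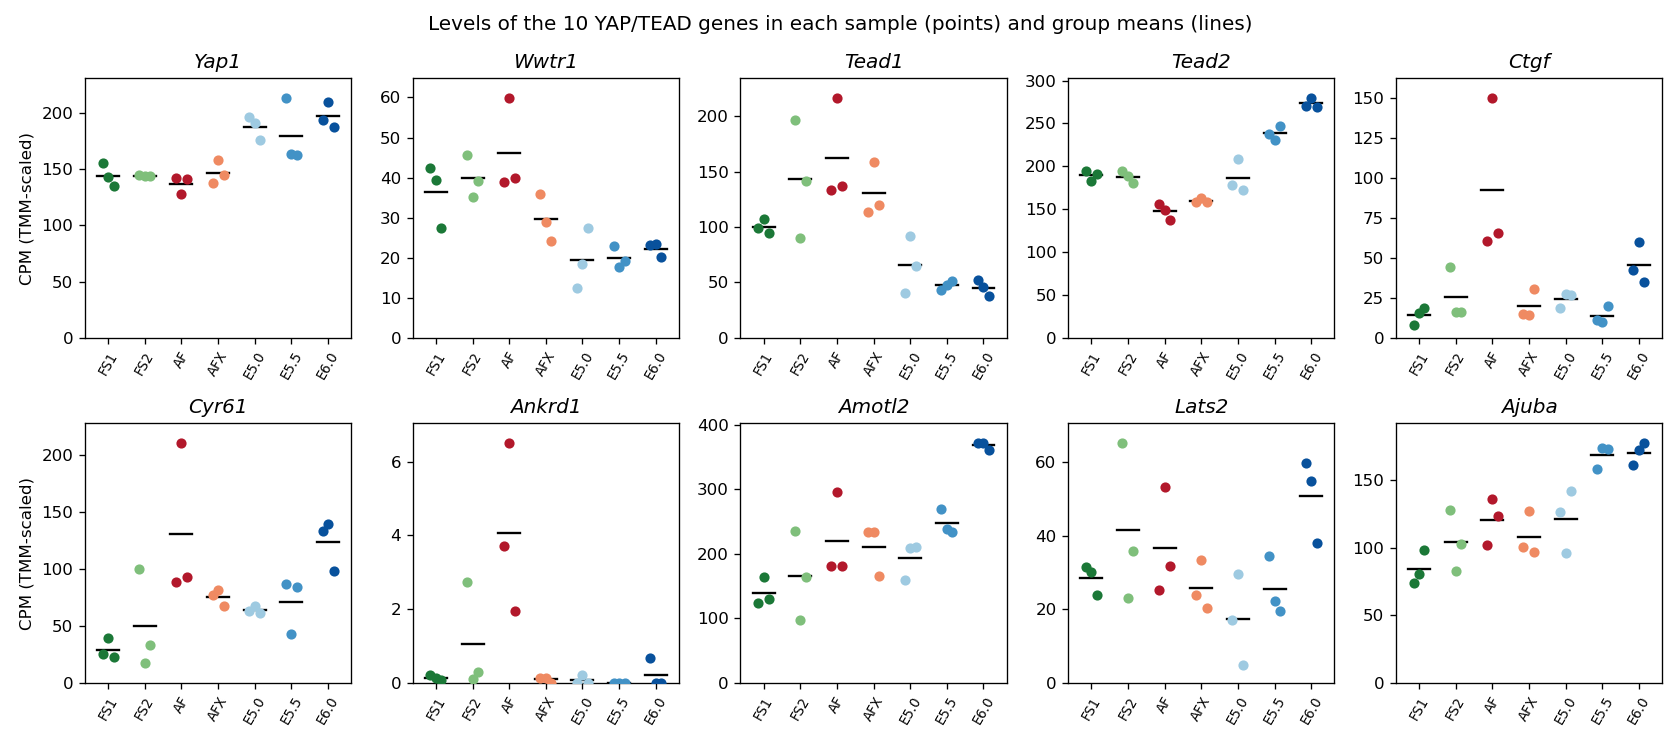
Level of each of the 10 genes in CPM (y axis, linear, from 0, each panel on its own scale) in the 7 groups (x axis); each point is a sample and each black line a group mean. The AF points stand highest for Ctgf, E6.0 points for Amotl2, and the single high FS2 point in Ctgf, Cyr61, Ankrd1 and Lats2 is passage 12.

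FS cells had lower levels of the 3 target genes than AF cells, with little difference in the coactivators. Ctgf was 19.8 ± 12.6 CPM (SD, n = 6) in FS and 92.3 ± 50.3 CPM (SD, n = 3) in AF, with no overlap. It fell by 2.23 ± 0.47 (SE) on the log2 scale, with an adjusted p of 0.00678 in edgeR's quasi-likelihood test with Benjamini-Hochberg adjustment over all genes tested, the test used for every adjusted p below. Cyr61 fell by 1.74 ± 0.50 (adjusted p = 0.0335), from 131 ± 69.7 to 39.5 ± 30.5 CPM, and Ankrd1 fell by 2.74 ± 0.84 (adjusted p = 0.0336), from 4.06 ± 2.30 to 0.587 ± 1.06 CPM. Without FS2 passage 12 the FS mean of Ankrd1 was 0.158 CPM and the log2 difference was -4.53 (adjusted p = 0.000158). Apart from FS2 passage 12, no FS or AFX sample had over 5 counts of Ankrd1, against 21 to 74 in AF. The gene passed the filter on low counts through AF, so it could only test as higher there. Tead2 rose by 0.34 ± 0.08 (adjusted p = 0.00756), from 147 ± 9.13 to 188 ± 5.87 CPM, so 4 of the 10 genes passed the threshold, against 19.5% of the 16052 genes tested. For the other 6 the log2 difference was 0.06 for Yap1, -0.29 for Wwtr1, -0.43 for Tead1, -0.54 for Amotl2, -0.08 for Lats2 and -0.37 for Ajuba. The adjusted p of these 6 ran from 0.122 for Ajuba to 0.893 for Lats2.

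The calls for Cyr61 and Ankrd1 lay close to the threshold. Without AF passage 15, Cyr61 fell short of the threshold at a log2 difference of -1.20 (adjusted p = 0.179), as did Ankrd1 at -2.20 (adjusted p = 0.138). Leaving out any 1 of the other AF or FS samples, apart from FS2 passage 12, also ended at least 1 call, with the size of the difference little moved. Cyr61 lost its call without FS1 passage 10, 11 or 18, FS2 passage 16 or AF passage 16, at log2 differences of -1.95 to -1.62 (adjusted p = 0.0517 to 0.0663). Ankrd1 lost it without FS1 passage 10, 11 or 18, FS2 passage 13 or 16 or AF passage 14, at -2.81 to -2.51 (adjusted p = 0.0503 to 0.0721), and Tead2 without AF passage 16, at 0.29 (adjusted p = 0.0569). Cyr61 and Ankrd1 also lost their calls with FS and AF fitted alone (adjusted p = 0.0669 and 0.0528), without a filter (adjusted p = 0.0778 and 0.0765) and with FS2 as the only FS line, where Cyr61 was at -1.41 (adjusted p = 0.0794) and Ankrd1 at -1.98 (adjusted p = 0.125). Without FS2 passage 12, Tead1 (-0.62, adjusted p = 0.0341), Amotl2 (-0.71, adjusted p = 0.0304) and Ajuba (-0.47, adjusted p = 0.0289) passed as well. With FS1 as the only FS line, Tead1 (-0.71, adjusted p = 0.0301) and Ajuba (-0.53, adjusted p = 0.0421) passed. Ctgf kept its call in all 18 alternatives.

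**Figure D2:**
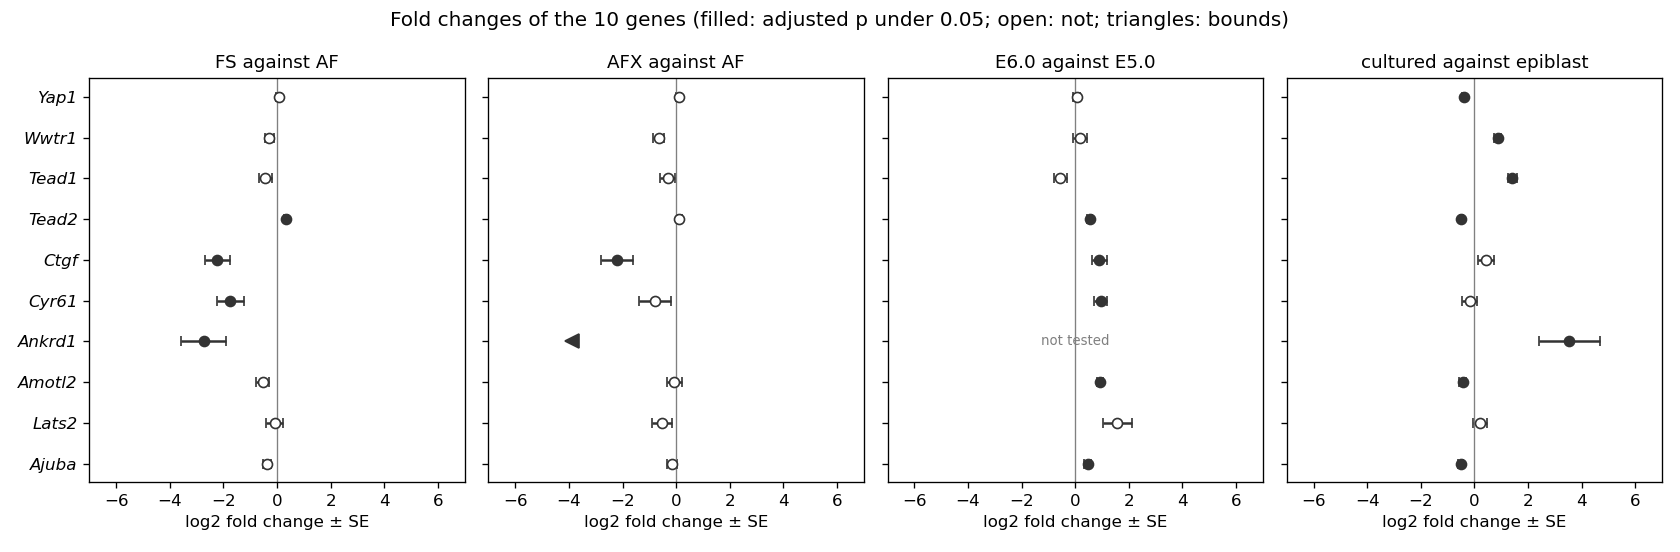
Log2 fold change with its SE (x axis) of the 10 genes (y axis) in 4 comparisons, the first group over the second; filled symbols passed an adjusted p of 0.05, and triangles are bounds for genes with at most 3 counts in every sample of a group. Ctgf and Ankrd1 lie below 0 where AF is the second group, and the genes called between E5.0 and E6.0 all lie above 0.

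The wider target signature, 22 genes often used as YAP and TAZ readouts that include 5 of the 10 described here, was mostly lower in FS than in AF. Of the 21 genes tested, 13 fell and 0 rose, with a median log2 fold change of -0.80 beside 0.02 over all genes tested, where 10.6% of genes fell. Of the 16 that are not among the 10 genes, 10 fell. Some signature genes, such as Ankrd1, Nt5e and Ccdc80, passed the filter on low counts through AF, where they were high. The count of lower genes was therefore partly set by the filter. Nt5e, an ecto-nucleotidase, fell by 5.19 ± 0.70 (adjusted p = 0.000181), from 10.3 ± 6.84 CPM (SD, n = 3) in AF to 0.302 ± 0.272 CPM (SD, n = 6) in FS. Igfbp3, which binds insulin-like growth factors, fell by 3.99 ± 0.63 (adjusted p = 0.00172), from 199 ± 79.8 to 12.7 ± 3.19 CPM, and Myof, a membrane-repair protein, fell by 3.59 ± 0.45 (adjusted p = 0.000123), from 24.8 ± 7.55 to 2.11 ± 1.61 CPM. Without AF passage 15, 7 signature genes fell, and with both AF passage 15 and FS2 passage 12 left out, 11 fell.

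Fibroblast markers moved with these targets: 6 of the 8 tested were lower in FS than in AF, and the summed level of all 9 was 247 to 299 CPM in AF and 37.8 to 74.1 CPM in FS. Postn was at 0 in 2 cultured samples, Dcn in 3, Col3a1 in 1 and Lum in 7, while Col1a1, Col1a2, Thy1, Pdgfrb and Fbn1 were detected in all 12. Within AF the highest Ctgf and Cyr61 levels were in passage 15, whose fibroblast sum of 286 CPM lay between the 299 CPM of passage 14 and the 247 CPM of passage 16. Its epiblast marker sum of 1133 CPM was the lowest of the 21 samples, with 1710.2 and 1621 CPM in the other AF samples, and 2 of 6 epiblast markers were higher in FS than in AF. FS2 passage 12, the highest FS sample for both, had a fibroblast sum of 63.6 CPM, below the 74.1 CPM of FS2 passage 16. Visceral endoderm genes summed to 45.7 to 70.9 CPM in AF and 1.49 to 3.90 CPM in FS, with 2 of the 3 tested lower in FS. The AF sum came mostly from Sox17 and Gata6, which reached 43.02 and 22.7 CPM. Afp was at 0 in all 12 cultured samples, Ttr, Apoa1, Apob, Amn, Cubn, Hnf4a and Trf were detected in some of them at up to 1.48 CPM, and Rbp4 in all 12 at up to 2.64 CPM. Of the extraembryonic ectoderm genes 3 of 4 tested were lower in FS, with sums of 65.1 to 154 CPM in AF and 27.8 to 56.1 CPM in FS. The highest levels in the cultures were 134 CPM for Eomes, 13.7 CPM for Tfap2c and between 0.057 and 3.96 CPM for the other 6 genes. The part of these marker lists in the result was not tested. In RNA from many cells, fewer cells of a type and less RNA per cell cannot be told apart.

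**Figure D3:**
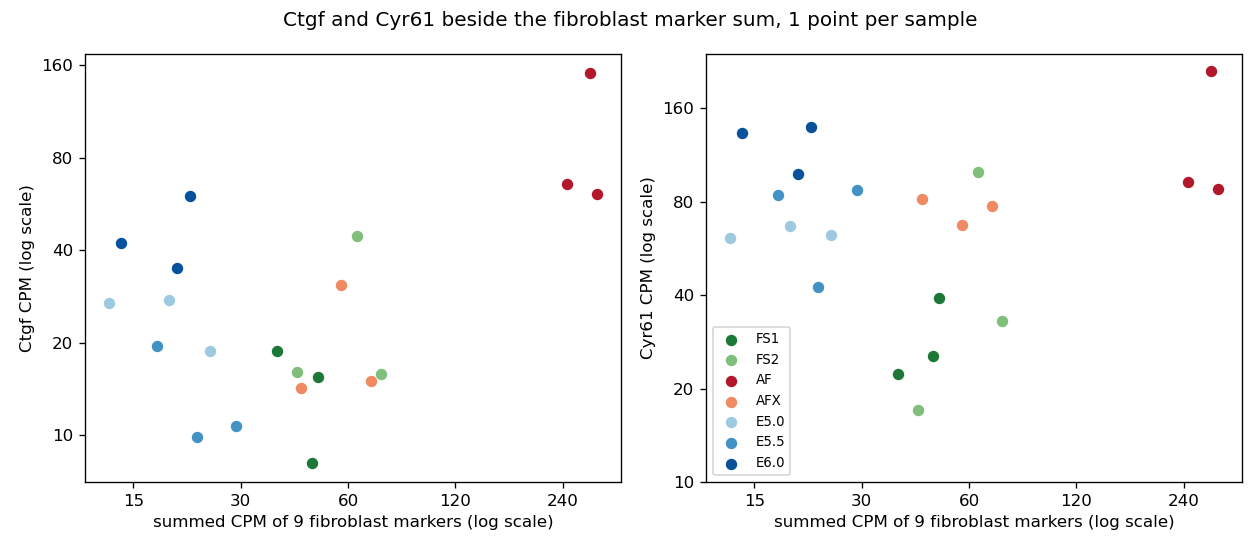
Ctgf (left) and Cyr61 (right) in CPM on a log axis against the summed CPM of 9 fibroblast markers on a log axis, 1 point per sample, coloured by group. The AF samples lie apart at 247 to 299 CPM of fibroblast markers, and E6.0 samples lie at Cyr61 levels above the 2 lower AF samples with 13.8 to 21.7 CPM of fibroblast markers.

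Among further TEAD and VGLL genes, FS cells were lower than AF in 4 of 5 tested. Vgll2, which encodes a vestigial-like TEAD cofactor, fell by 3.97 ± 1.10 (adjusted p = 0.0201). Its counts were low, 3 to 26 in AF and 0 to 5 in FS, and the groups overlapped. The highest FS sample had 0.497 CPM and the lowest AF sample 0.371 CPM. Vgll3 fell by 2.76 ± 0.51 (adjusted p = 0.00154), from 5.61 ± 2.21 CPM (SD, n = 3) to 0.839 ± 0.559 CPM (SD, n = 6). Tead4, the trophectoderm TEAD, fell by 2.52 ± 0.37 (adjusted p = 0.000277), from 10.9 ± 2.79 CPM (SD, n = 3) to 1.92 ± 0.835 CPM (SD, n = 6). Of 15 kinase core and scaffold genes, 2 fell, Wwc2 by 0.64 ± 0.15 (adjusted p = 0.00835) and Mob1a by 0.49 ± 0.13 (adjusted p = 0.0155), and 0 rose, a share near the 10.6% of all genes that fell. Of 16 junction and polarity genes, 4 fell and 0 rose, against the same 10.6%. Amot, the motin paralogue of Amotl2, on chromosome X, differed most: it was 27.1 to 44.3 CPM in the 6 FS samples and 537 to 813 CPM in AF, and fell by 4.29 ± 0.59 (adjusted p = 0.000763). Fat4, an atypical cadherin, fell by 2.26 ± 0.48 (adjusted p = 0.00512) and Wtip, a relative of Ajuba, by 0.79 ± 0.21 (adjusted p = 0.0153).

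AFX cells, in the medium with the added agent, had lower Ctgf and Ankrd1 than AF cells of the same E14 name. Ctgf was 20.01 ± 9.28 CPM (SD, n = 3) in AFX and fell by 2.20 ± 0.58 from AF (adjusted p = 0.0404), with no overlap. Ankrd1 was at least 14.7-fold lower in AFX (adjusted p = 0.0233), the bound being taken at 3 counts per sample. It passed the filter on low counts through AF, so it could only test as lower in AFX. These 2 of the 10 genes passed, against 8.73% of all genes tested, and neither passed without a filter on low counts (adjusted p = 0.105 for Ctgf and 0.0553 for Ankrd1). Cyr61 was 75.5 ± 7.43 CPM in AFX, a log2 difference of -0.80 from AF (adjusted p = 0.509), although no AFX sample reached the lowest AF sample. Wwtr1 was also lower in every AFX sample than in any AF sample, at a log2 difference of -0.64 (adjusted p = 0.0731), and it passed with DESeq2 (-0.66, adjusted p = 0.0363). The Ctgf call was lost without AF passage 15 (-1.66, adjusted p = 0.144). It was also lost without AF passage 16 or AFX passage 14 or 15, where the difference stayed at -2.42 to -2.02 (adjusted p = 0.0607 to 0.147). The Ankrd1 call was lost without AF passage 15 (adjusted p = 0.0612), where the AF mean was 2.83 CPM. It was also lost without AFX passage 14, 15 or 16 (adjusted p = 0.0741 to 0.0828).

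In the target signature, 7 of 21 genes fell in AFX and 0 rose, with a median of -0.87 beside 0.01 over all genes, where 4.42% of genes fell. Ccdc80, a matrix protein, was at least 12.9-fold lower (adjusted p = 0.0141), and Nt5e fell by 3.30 ± 0.78 (adjusted p = 0.0183). Here too Ankrd1, Nt5e and Ccdc80 passed the filter on low counts through AF, so the count was partly set by the filter. The count was 3 without AF passage 15, 2 without AFX passage 14 and 1 without AFX passage 15. Fibroblast markers moved here too: 7 of the 8 tested fell and 1 rose, with sums of 44.3 to 69.8 CPM in AFX. Of the visceral endoderm genes 2 of 3 tested fell, to sums of 3.50 to 13.5 CPM, and of the extraembryonic ectoderm genes 1 of 4 fell, to sums of 43.01 to 75.01 CPM. The part of these lists in the result was not tested. Of 16 junction and polarity genes, 3 fell and 1 rose, against 4.42% of all genes that fell and 8.73% called in either direction. Scrib, a polarity protein, was the one that rose, by 0.79 ± 0.10 (adjusted p = 0.000374), from 104 ± 4.68 to 180 ± 5.85 CPM.

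**Figure D4:**
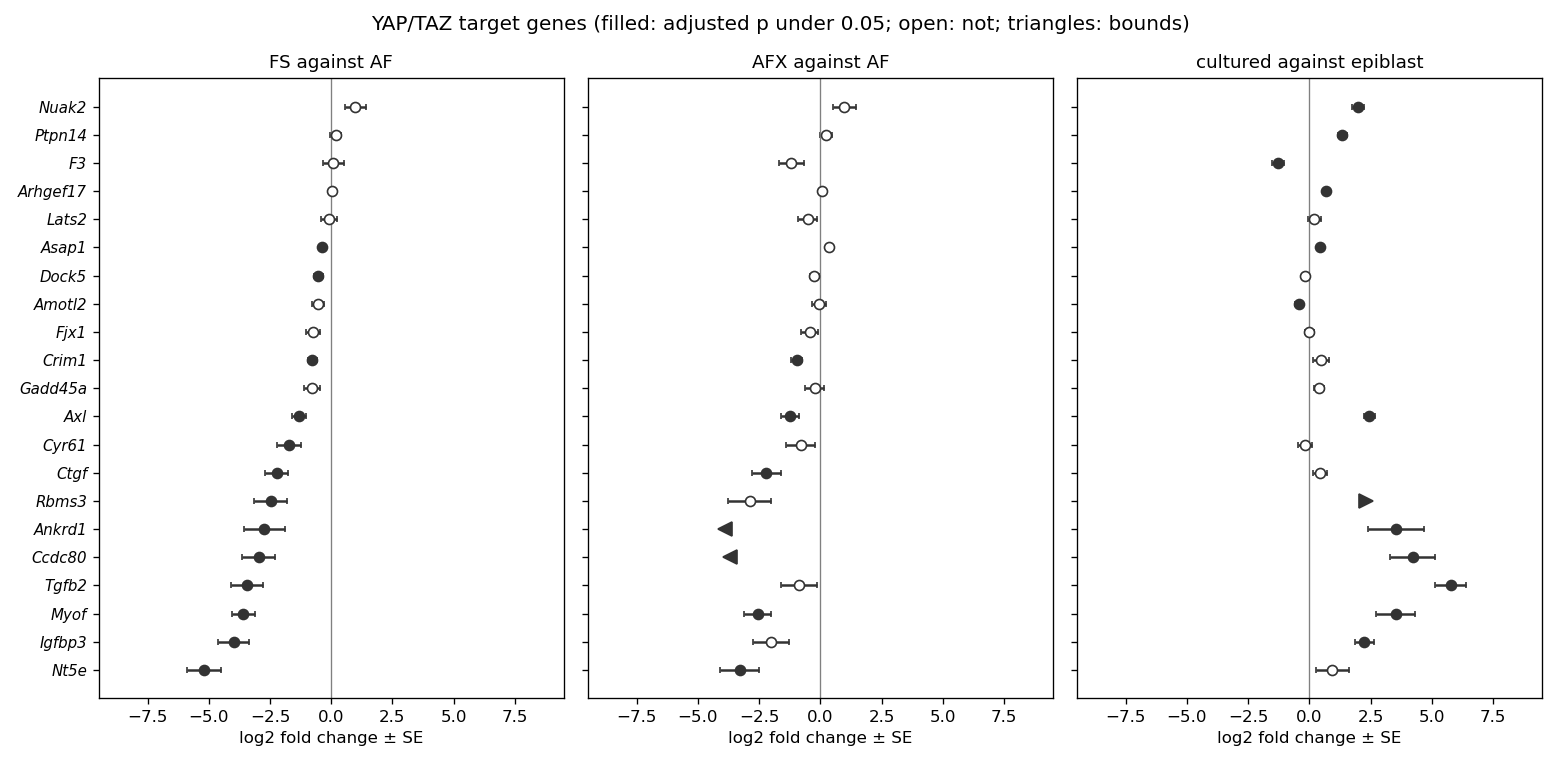
Log2 fold change with its SE (x axis) of the 21 tested genes of the YAP/TAZ target signature (y axis, in the order of FS against AF) in 3 comparisons; filled symbols passed an adjusted p of 0.05 and triangles are bounds. In both comparisons with AF all called genes lie below 0, while in cultured against epiblast 11 lie above 0 and 2, F3 and Amotl2, below.

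FS and AFX cells, whose media names share the X, were not separated in any of the 10 genes by edgeR's test. The count was 0 of 10, against 8.7% of all genes tested. Tead2 was the 1 gene with an unadjusted p under 0.05 (log2 difference 0.23, adjusted p = 0.0958). Its FS samples, at 180.1 CPM and above, did not overlap AFX, at 163 CPM and below, and it passed with DESeq2 (adjusted p = 0.00829). The Ctgf difference was -0.03 ± 0.50 (SE) on the log2 scale, a standard error that leaves room for a sizeable difference either way. Cyr61 was 39.5 ± 30.5 CPM in FS and 75.5 ± 7.43 CPM in AFX (log2 difference -0.94, adjusted p = 0.311). Without FS2 passage 12 that difference was -1.47 and passed (adjusted p = 0.0139), and with AF passage 15 left out as well Amotl2 also passed (-0.64, adjusted p = 0.035). Of the signature, 2 of 21 tested genes fell in FS and 0 rose, near the 8.7% of all genes called in either direction. Asap1, a membrane-traffic protein, fell by 0.72 ± 0.12 (adjusted p = 0.00135) and Tgfb2 by 2.56 ± 0.66 (adjusted p = 0.0381). Of the marker lists, 2 of 8 fibroblast genes and 1 of 3 visceral endoderm genes were lower in FS, and 0 of 4 extraembryonic ectoderm genes were called. Their part in the result was not tested. Of 5 further TEAD and VGLL genes tested, 1 was higher in FS and 0 lower. Of 16 junction genes, 2 were lower and 0 higher. Amot was among those 2 (adjusted p = 0.0335), but its 3 AFX samples had 48.2, 56.3 and 398 CPM, against 27.1 to 44.3 CPM in FS. The size of the Amot difference rests on 1 AFX sample, and Amot was not refitted without it. The comparisons of FS, AF and AFX share samples and are not independent of one another.

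The FS lines did not separate in any of the 10 genes by edgeR's test: 0 of 10 passed, against 3.85% of all genes tested, and 0 of 10 with DESeq2. With edgeR and no filter on low counts 5 of 10 passed, against 1298 of 29996 genes, all 5 higher in FS2. They were Cyr61 by 0.79 (adjusted p = 1.4e-05), Ctgf by 0.84 (adjusted p = 0.000144), Tead1 by 0.51 (adjusted p = 0.00667), Ankrd1 (adjusted p = 0.0089) and Lats2 by 0.54 (adjusted p = 0.0442). In the filtered test Ankrd1 was the 1 gene with an unadjusted p under 0.05, and its adjusted p was 0.192. Cyr61 was 49.9 ± 43.7 CPM (SD, n = 3) in FS2 and 29.0 ± 8.94 CPM (SD, n = 3) in FS1, and without passage 12 the FS2 mean was 25.1 CPM. Ctgf was 25.4 ± 16.5 CPM in FS2 and 14.1 ± 5.43 CPM in FS1, and without passage 12 the FS2 mean was 15.9 CPM.

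In the embryo, levels of several of the genes were higher at E6.0 than at E5.0. Amotl2 rose by 0.92 ± 0.12 (adjusted p = 9.26e-05), from 193 ± 28.9 to 368 ± 6.80 CPM (SD, n = 3 each), and Tead2 rose by 0.54 ± 0.10 (adjusted p = 0.00156), from 186 ± 19.4 to 273 ± 5.97 CPM. Cyr61 rose by 0.94 ± 0.23 (adjusted p = 0.0132), from 63.6 ± 3.002 to 124 ± 22.1 CPM, and Ctgf rose by 0.89 ± 0.28 (adjusted p = 0.0344), from 24.4 ± 4.88 to 45.7 ± 12.8 CPM. Ajuba rose by 0.47 ± 0.13 (adjusted p = 0.0181). With these 5 of the 9 tested genes rose and 0 fell, against 10.2% of the 14228 genes tested that rose and 21.8% called in either direction. None of the 5 had overlapping groups. Yap1 differed by 0.05 (adjusted p = 0.804), Wwtr1 by 0.18 (adjusted p = 0.679) and Tead1 by -0.56 (adjusted p = 0.12), while Lats2 differed by 1.57 (adjusted p = 0.0812) without overlap. Lats2 passed without E5.0 embryo 2 (2.21, adjusted p = 0.0182), without E5.0 embryo 4 (1.13, adjusted p = 0.0235) and with DESeq2 (1.56, adjusted p = 0.0439), and Tead1 passed as lower at E6.0 without E5.0 embryo 1 (-0.79, adjusted p = 0.0115) and without a filter (-0.52, adjusted p = 0.0239).

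The Ctgf call was lost without E5.0 embryo 1 or 4 or E6.0 embryo 1 or 2, with a lowest difference of 0.66 (adjusted p = 0.18) without E6.0 embryo 2. Cyr61 lost its call without E5.0 embryo 4 (adjusted p = 0.0518) and Ajuba without E6.0 embryo 2 or 3, while Amotl2 and Tead2 kept theirs whichever embryo was left out. With embryo number as a replicate block in the fit, Ctgf (adjusted p = 0.0982) and Cyr61 (adjusted p = 0.131) lost their calls and Lats2 passed (adjusted p = 0.0156). Visceral endoderm genes fell over the same interval, 6 of 7 tested, from a sum of 235 to 791 CPM at E5.0 to 6.41 to 9.17 CPM at E6.0, while the fibroblast sum was 12.8 to 24.6 CPM at E5.0 and 13.8 to 21.7 CPM at E6.0. Their part in the result was not tested.

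Between E5.0 and E5.5 1 gene passed: Ajuba rose by 0.45 ± 0.13 (adjusted p = 0.0485), against 6.82% of genes called. That call was lost without E5.0 embryo 1 or 2 or any 1 of the E5.5 embryos, with DESeq2's size factors (adjusted p = 0.0564) and with the 2 stages fitted alone (adjusted p = 0.111). Tead2 was higher at E5.5 by 0.34 without overlap (adjusted p = 0.0517), and passed with DESeq2 (adjusted p = 0.0241), without a filter (adjusted p = 0.0377) and without E5.0 embryo 2 (adjusted p = 0.0142). Amotl2 was higher by 0.35 without overlap (adjusted p = 0.0899) and passed without a filter (adjusted p = 0.0309). Tead1 differed by -0.49 (adjusted p = 0.254) and passed as lower at E5.5 without E5.0 embryo 1 (-0.73, adjusted p = 0.0376). Ctgf was 24.4 ± 4.88 CPM at E5.0 and 13.4 ± 5.33 CPM at E5.5, a log2 difference of -0.87 (adjusted p = 0.0834) that passed with DESeq2 (-0.88, adjusted p = 0.0367), without a filter (adjusted p = 0.00677) and without E5.5 embryo 3 (-1.24, adjusted p = 0.0305). Of 7 visceral endoderm genes tested 6 were lower at E5.5 than at E5.0. Between E5.5 and E6.0, Ctgf rose by 1.76 ± 0.28 (adjusted p = 0.00292), to 45.7 ± 12.8 CPM, and Amotl2 rose by 0.57 ± 0.11 (adjusted p = 0.0117), so 2 of 9 passed against 4.43% of genes called. The Amotl2 call was lost without E5.5 embryo 2 or 3 or E6.0 embryo 2, at adjusted p of 0.0539 to 0.0624. Cyr61 differed by 0.79 (adjusted p = 0.0795) without overlap and passed with DESeq2 (adjusted p = 0.0117) and without a filter (adjusted p = 3.33e-06). Lats2 differed by 0.99 (adjusted p = 0.385) without overlap and passed with the 2 stages fitted alone (adjusted p = 0.0212). Over this step the extraembryonic ectoderm sum was 25.5 to 50.6 CPM at E5.5 and 72.6 to 193 CPM at E6.0, with 0 of 4 tested genes called. Among the epiblasts Eomes reached 187 CPM, and no other gene of that list exceeded 14.1 CPM. The visceral endoderm sum was 24.7 to 60.2 CPM at E5.5 and 6.41 to 9.17 CPM at E6.0, with 1 of 7 called lower. The part of these lists in the result was not tested. The 3 stage comparisons share embryos.

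Other pathway genes also differed between E5.0 and E6.0. Amot fell by 2.28 ± 0.19 (adjusted p = 6.91e-06), from 421 ± 28.5 to 87.4 ± 18.6 CPM, while Amotl1, the third motin, rose by 1.49 ± 0.38 (adjusted p = 0.0212), from 26.03 ± 14.9 to 73.3 ± 8.80 CPM. Fat4 rose by 1.67 ± 0.56 (adjusted p = 0.046) and Inadl, a tight junction scaffold, by 1.26 ± 0.15 (adjusted p = 5.54e-05), so with Amotl2 and Ajuba 5 of 16 junction genes rose and 1 fell (3 and 1 of the 14 that are not among the 10 genes), against 10.2% of all genes that rose and 21.8% called in either direction. Tead4 fell by 2.90 ± 0.70 (adjusted p = 0.00956), and its E5.0 values of 4.80 to 22.0 CPM spread widely. Of the 16 signature genes tested, 5 rose and 0 fell, against the same 10.2%, with a median of 0.78 beside -0.02 over all genes. Those outside the 10 genes were Igfbp3, which rose by 1.22 ± 0.39 (adjusted p = 0.0379), and Arhgef17, which rose by 0.83 ± 0.13 (adjusted p = 0.000564). The count was 3 without E5.0 embryo 4 or without E6.0 embryo 1 or 2, and 8 without E5.0 embryo 2.

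Cultured cells and epiblasts differed in most of the 10 genes, but so did most genes. Over all cultures against all epiblasts, 3 rose and 4 fell, against 61.8% of 16614 genes called. Tead1 rose by 1.41 ± 0.17 (adjusted p = 9.35e-07) and Wwtr1 by 0.87 ± 0.13 (adjusted p = 6.72e-06), while Tead2 fell by 0.48 ± 0.05 (adjusted p = 3.45e-08) and Yap1 by 0.40 ± 0.06 (adjusted p = 5.31e-06). Ankrd1 rose by 3.55 ± 1.15 (adjusted p = 0.0113), a call that was lost without AFX passage 14 (adjusted p = 0.0663). That rise came from AF, at a mean of 4.06 CPM, and from FS2 passage 12: the AFX mean of 0.0865 CPM and the FS1 mean of 0.133 CPM lay below the E6.0 mean of 0.219 CPM. Leaving out single samples moved it from 2.94 without FS2 passage 12 to 4.91 without E6.0 embryo 1. Amotl2 fell by 0.44 ± 0.13 (adjusted p = 0.00772) and Ajuba by 0.50 ± 0.10 (adjusted p = 9.16e-05). Ctgf (0.43, adjusted p = 0.195), Cyr61 (-0.17, adjusted p = 0.618) and Lats2 (0.20, adjusted p = 0.533) did not pass, although with both AF passage 15 and FS2 passage 12 left out Cyr61 passed at -0.52 (adjusted p = 0.00682). Cultured samples held 1000 cells and each epiblast was a single embryo's tissue, so culture and the amount and kind of input cannot be told apart.

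Against the E5.5 epiblast alone, FS cells differed in 7 of the 10 genes, against 43.8% of genes called. Tead1 rose by 1.37 ± 0.27 (adjusted p = 0.000569), Wwtr1 rose by 0.94 ± 0.21 (adjusted p = 0.00113) and Ankrd1 was at least 1.83-fold higher (adjusted p = 0.0295). The Ankrd1 bound holds only through FS2 passage 12: the other 5 FS samples had 1 to 5 counts and a mean of 0.158 CPM, which is under 3 counts in every library, so no bound remains without it. Ajuba fell by 0.83 ± 0.15 (adjusted p = 8.2e-05), Amotl2 by 0.70 ± 0.20 (adjusted p = 0.00931), Tead2 by 0.34 ± 0.08 (adjusted p = 0.00143) and Yap1 by 0.32 ± 0.09 (adjusted p = 0.00802). The Yap1 call was lost without E5.5 embryo 1 (-0.17, adjusted p = 0.159), the Amotl2 call with FS2 as the only FS line (-0.57, adjusted p = 0.0813), and the Ankrd1 call without FS2 passage 12 (adjusted p = 0.09) or any 1 of the E5.5 embryos. Cyr61 was 39.5 ± 30.5 CPM (SD, n = 6) in FS and 71.2 ± 24.9 CPM (SD, n = 3) in E5.5 (log2 difference -0.85, adjusted p = 0.132), and without FS2 passage 12 the difference was -1.37 and passed (adjusted p = 0.00134). Of the marker lists, 3 of 8 fibroblast genes were higher in FS and 1 lower, and 6 of 9 visceral endoderm genes were lower and 1 higher, and their part in the result was not tested.

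The signature was higher in culture than in the epiblasts in 11 of 21 genes and lower in 2, with a median of 0.67 beside 0.09 over all genes, where 33.9% rose and 27.9% fell. Rbms3, an RNA-binding protein gene, was at least 5.01-fold higher (adjusted p = 1.21e-05), Tgfb2, a growth factor, rose by 5.77 ± 0.64 (adjusted p = 6.5e-07) and Ccdc80 rose by 4.23 ± 0.92 (adjusted p = 0.000549). For Ccdc80 the rise came mainly from AF, at 3.56 CPM: the FS2 mean of 0.154 CPM and the AFX mean of 0.208 CPM lay below the E6.0 mean of 0.323 CPM. Rbms3 too was highest in AF, at 4.83 CPM, with 0.501 to 1.25 CPM in the other cultured groups. Ankrd1, Ccdc80 and Rbms3 passed the filter on low counts through cultured samples, so the count of higher genes was partly set by the filter. F3, tissue factor, fell by 1.28 ± 0.26 (adjusted p = 0.000171), and the other gene lower in culture was Amotl2. Fibroblast markers moved in the same direction, 6 of 8 higher and 1 lower. Visceral endoderm genes were lower in 6 of 9 and higher in 1, and epiblast markers lower in 4 of 6 and higher in 1. The part of these lists in the result was not tested. Of 15 kinase core and scaffold genes, 7 rose and 4 fell, and of 16 junction genes, 5 rose and 5 fell.

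The levels of some of the 10 genes ran together across samples. Among 8610 genes with a mean of at least 10 CPM, the gene most like Cyr61 over the 21 samples was Amotl2 (Pearson r of log2 CPM = 0.846; 0.924 over the 12 cultured samples and 0.779 over the 9 epiblasts), followed by Sema3e (0.831; 0.121 over the epiblasts) and Dstn (0.831). Ctgf was most like Dstn (0.826), Trim67 (0.787) and Fam107b (0.778), and its r with Cyr61 was 0.706. Yap1 was most like Ctcf (0.915), Ppp2r2a (0.915) and Cdca5 (0.906), and its r with Ctgf was -0.135, with -0.634 over the 12 cultured samples and 0.324 over the 9 epiblasts. These values describe samples that share groups, lines and library scaling, and carry no test; the cultured and epiblast samples form separate clusters in Yap1, so its r rests largely on that gap, with Ctcf at 0.736 within cultures and 0.545 within epiblasts.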

How the data were processed

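RNA of 12 cultured mouse samples and 9 single epiblasts was sequenced. The deposited values are raw counts per gene made by the authors, with 1 column per sample; per the submitters' processing notes, Trim Galore, TopHat2 2.1.0, featureCounts 1.5.0 and the mm10 build were used. The annotation, the strand setting and any sequencing batch are not given in the sources used here.

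From these counts, TMM-scaled CPM and tests were computed in R 4.3.3 with edgeR 4.0.16 (filterByExpr, robust quasi-likelihood F-tests, two-sided, Benjamini-Hochberg over all genes tested, threshold 0.05), and DESeq2 1.42.0 was an alternative. The cultured comparisons were fitted on 12 samples, the stages on 9, and cultured against epiblast on 21. The SE of a log2 fold change is its size divided by the root of F. FPKM used exon lengths of GENCODE M21 (GRCm38), where all 10 genes matched by Ensembl identifier. Where every sample of a group had at most 3 counts, a bound against 3 counts per sample replaces the fold change; floors cover counting error only. The tests were tried on simulated counts.

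The 10 genes and the gene lists were chosen with earlier results of these data known. Named are the 10 genes, up to 3 genes per pathway list, comparison and direction with the largest change, and the 3 genes most like Yap1, Ctgf and Cyr61. Genes of the marker lists are named for their levels. Passage and embryo numbers did not pair samples.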

Additional observations from a re-analysis of the deposited data

Results flagged for a closer look

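In 4 of the 10 genes, 1 of the 6 FS samples lay farther from the rest than Dixon's 95% critical value allows, and it was FS2 passage 12 each time. Chance flags about 1 in 20 groups for a single gene. The 4 flags here come from 1 library, and levels of some of these genes ran together, so they are not independent. The ratio was taken on CPM without a log scale. The levels there were 44.5 CPM for Ctgf, 99.5 CPM for Cyr61, 2.74 CPM for Ankrd1 and 65.4 CPM for Lats2. The next highest FS samples had 18.8, 39.1, 0.285 and 36.0 CPM, in the same order. Its fibroblast marker sum of 63.6 CPM lay within the FS range of 37.8 to 74.1 CPM.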

How the results depend on the processing

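Refits gave 1375 log2 fold changes of the 10 genes, of which 1246 kept their direction and their side of the threshold, 59 lost a call, 38 gained one and 32 changed sign. The refits with both AF passage 15 and FS2 passage 12 left out were chosen after seeing the data. Genes outside the 10 were not refitted one by one. The cause of the changes below was not tested.

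In FS against AF, 2 of the 10 genes were called without a filter, with the 2 groups fitted alone and with FS2 alone, and 2 to 7 with single samples left out; 7 to 14 signature genes were lower. Cyr61 and Ankrd1 lost their calls without a filter (adjusted p = 0.0778 and 0.0765 in edgeR's test). In FS against AFX, 1 of the 10 was called with DESeq2 and with FS1 alone, 2 with both libraries left out and 0 to 1 with single samples left out; 1 signature gene was lower with the 2 groups alone, 1 to 3 with single samples left out, and 820 to 1485 genes were called. In AFX against AF, 0 of the 10 were called without a filter and 1 with a mean of at least 5 CPM, with 4 signature genes lower in each; with single samples left out 0 to 2 of the 10, 1 to 7 signature genes and 732 to 1129 genes were called. In FS2 against FS1, 5 of the 10 were called without a filter, and 1099 genes with DESeq2, 1298 without a filter, 1045 with the 2 groups alone and 316 to 478 with single samples left out.

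In E5.5 against E5.0, 0 of the 10 were called with DESeq2's size factors and with the 2 groups alone, 3 with DESeq2, 4 without a filter and 0 to 1 with single embryos left out; 1590 genes were called with DESeq2, 1659 without a filter, 453 with the 2 groups alone and 371 to 1260 with single embryos left out. In E6.0 against E5.5, 1075 genes were called with DESeq2, 1107 without a filter, 1445 with the 2 groups alone and 238 to 372 with single embryos left out, where 1 to 2 of the 10 were called. In E6.0 against E5.0, 3 to 6 of the 10, 3 to 8 signature genes and 1905 to 3362 genes were called with single embryos left out. Leaving out the filter shifted the median of all genes in cultured against epiblast by 0.25.

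Same-numbered samples did not deviate together (r of -0.217, -0.123 and 0.327 for AF and AFX), so the numbers were not taken as pairs. With AF and AFX fitted alone, 907 genes were called in AFX against AF with a replicate block of passage number and 1175 without it. Embryo number 4 occurs only at E5.0, so with a replicate block of embryo number the E5.0 comparisons rest on E5.0 embryos 1 and 2. With that block, 421 genes and 0 of the 10 were called in E5.5 against E5.0 (Ajuba at an adjusted p of 0.0604 in edgeR's test), and Lats2 passed in E6.0 against E5.5 (adjusted p = 0.0447). In E6.0 against E5.0, 3 signature genes were higher, with Ctgf at 0.92 (adjusted p = 0.0982), Cyr61 at 0.92 (adjusted p = 0.131) and Lats2 at 1.28 (adjusted p = 0.0156).

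The values that changed sign were uncalled. With FS2 alone, FS against AF was 0.15 for Lats2, and FS against AFX was 0.11 for Tead1 and 0.31 for Ctgf. With both libraries left out, Lats2 was 0.0092 in FS against AF and -0.0078 in cultured against epiblast, Amotl2 was 0.22 in AFX against AF and -0.10 in FS2 against FS1, and Cyr61 was -0.20 in FS2 against FS1. With single samples left out, the range was -0.36 to 0.29 for Lats2 in FS against AF, and in FS against AFX -0.072 to 0.023 for Yap1, -0.30 to 0.052 for Tead1 and -0.44 to 0.43 for Ctgf. It was -0.20 to 0.21 for Amotl2 in AFX against AF, and in FS2 against FS1 -0.072 to 0.028 for Yap1, -0.052 to 0.24 for Wwtr1, -0.20 to 1.17 for Cyr61 and -0.10 to 0.50 for Amotl2. It was -0.22 to 0.0062 for Yap1, -0.21 to 0.38 for Wwtr1 and -0.018 to 0.42 for Cyr61 in E5.5 against E5.0, -0.18 to 0.053 for Tead1 and -0.019 to 0.058 for Ajuba in E6.0 against E5.5, and -0.046 to 0.54 for Wwtr1 in E6.0 against E5.0. Counts of Ankrd1 were at most 3 in most samples, which limits what can be read from it outside AF.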
